A study of Homo sapiens and Mus musculus with 36 samples.

Results

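MS7126 is described by the series as a PROTAC against EZH2, a molecule built to have that histone methyltransferase degraded, and its effect on RNA levels in HepG2, a human liver cancer cell line, was set against loss of SREBP2 in the same line. The comparison took 12 of the 36 libraries of the series, in 6 groups of 2. MS7126-treated cells received 5 uM of the compound for 48 h and were compared with cells given DMSO for 48 h. For a few genes below, HepG2 cells given the EZH2 inhibitor C24 or the analogs MS7126N1 or MS7126N2 are quoted too. These other compounds were given at 5 uM for 48 h and set against the same DMSO libraries. Cells carrying 1 of 3 short hairpins against SREBP2, numbered #664, #665 and #667 and delivered in the lentiviral vector pLKO.1-puro under puromycin selection, were compared with cells labelled shControl, whose vector is described in one place as scramble and in another as empty. No time after infection is given for the hairpin groups, so dose, duration and kind of control differ between the arms. The arms share no libraries. The 3 hairpins share 1 pair of shControl libraries. Genes were kept when their mean was at least 10 normalized counts in all 4 of the authors' deposited tables, which left 12606 genes of the 18735 in the MS7126 table and of the 17197 to 17682 in the hairpin tables.

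SREBP2, made from the gene SREBF2, is a transcription factor held in the endoplasmic reticulum membrane and released when sterols are low. It then switches on the enzymes of cholesterol synthesis, genes of sterol uptake, and its own gene. Its relative SREBP1, made from SREBF1, acts more on fatty acid synthesis. In liver cells these programs set how much cholesterol is made, taken up and exported. ATF4, a second factor that matters below, is translated when cells sense amino acid shortage or other stress and switches on amino acid synthesis and transport.

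Each of the 4 tables holds the authors' own comparison, so every log2 fold change, standard error (SE), adjusted p and mean printed here is the authors' deposited value. The levels of single groups were rebuilt from the deposited mean and fold change, and the differences between MS7126 and a hairpin were computed from the deposited fold changes and SEs. No values of single libraries stand behind them, so the spread between replicates is seen only through the SE. The labels do not state that paired libraries are separate cultures, so the p-values reflect the spread among the libraries at hand, which may be technical. A gene was called when its deposited adjusted p was under 0.05. In bulk RNA, fewer cells of a kind and less RNA per cell cannot be told apart.

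All 12 hepatocyte and HepG2 markers checked had a mean of at least 10 in the 4 deposited tables. Of 5 fibroblast, 4 endothelial and 5 blood markers, 1 of each reached it (COL1A1, PECAM1 and LYZ). The deposited means of the fibroblast list summed to 733 normalized counts in the MS7126 table and 373 to 409 in the hairpin tables, those of the endothelial list to 35.7 and 37.6 to 73.2, and those of the blood list to 7407 and 66929 to 76053. Their part in the results was not tested. The deposited means summed to 16788277 normalized counts in the MS7126 table and to between 33812186 and 40979203 in the hairpin tables. Means of single genes did not all keep to that ratio. PHGDH had 87.4 with MS7126 against 5742 to 7463, and PDIA4 639 against 23774 to 29234. MALAT1 went the other way, at 38767 against 18777 to 20659. Older gene symbols were also more frequent in the MS7126 table (836 against 287 to 292). Whether annotation or read assignment differed between the arms was not tested. The median SE was 0.30 for MS7126, against 0.10, 0.15 and 0.15 for #664, #665 and #667, so a change of a given size was less often callable with MS7126. All 13 mitochondrial mRNAs were called higher with each hairpin, at a median log2 fold change of 1.72, 2.03 and 1.78 in the authors' deposited tables, and none was called with MS7126, where their median was -0.36. The nuclear RNAs MALAT1, NEAT1 and KCNQ1OT1 were likewise called higher with all 3 hairpins. With MS7126 NEAT1 (-0.81, adjusted p = 0.00192) and KCNQ1OT1 (-1.16, adjusted p = 4.07e-07) were called lower, so both count among the genes with opposite calls below, and MALAT1 was not called (0.55, adjusted p = 0.565). Because the hairpins share their control, a trait of the shControl pair cannot be told apart from an effect of the hairpins, and the part of this signal in the results was not tested.

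The targeted gene was read first. SREBF2 (GRCh38 chromosome 22, 41833079 to 41907308, plus strand) fell in all 4 comparisons. The levels implied by the authors' deposited tables were 639 normalized counts with MS7126, against 1284 with DMSO. They were 1685 with #664, against 5033 with shControl, 1997 with #665, against 4228 with shControl, and 827 with #667, against 4218 with shControl. The shControl level differs between tables because each table was normalized on its own. The deposited log2 fold change was -1.01 (SE 0.17, adjusted p = 8.74e-08) with MS7126, -1.58 (SE 0.06) with #664, -1.08 (SE 0.12) with #665 and -2.35 (SE 0.42) with #667. MS7126 left more SREBF2 mRNA than #664 (difference 0.57 on the log2 scale, 95% interval 0.23 to 0.92, adjusted p = 0.00567) and than #667 (1.34, 0.47 to 2.22, adjusted p = 0.0139), and a difference from #665 did not pass (0.08, -0.33 to 0.48, adjusted p = 0.838). Compared with genes of similar mean in the #667 table, SREBF2 had an SE that was 1.92 higher in log2 units, and 26 of the 12606 genes, SREBF2 among them, had an excess at least that large there. The excess was 0.13 with #664, 0.21 with #665 and -0.19 with MS7126. The main counts over all 3 hairpins are therefore also given without #667. EZH2 mRNA is no check of a compound that acts on the protein. It was not called with MS7126 (-0.29, SE 0.27, adjusted p = 0.58 in the authors' deposited table). With #664 EZH2 was called lower (-0.43, SE 0.10, adjusted p = 0.000103). It was not called with #665 (0.11, SE 0.13) or #667 (-0.31, SE 0.21).

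The start of SREBF2 is shown because SREBF2 was lower in both arms. The hairpins target this mRNA directly, so its fall there does not reproduce an effect of MS7126. The start also holds the letters of a sterol regulatory element core, the motif SREBP2 binds. The start of ASNS, the asparagine synthetase gene, is shown because ASNS had the highest log2 fold change of the ATF4 targets with MS7126 and was called higher with no hairpin. Both are the 250 bases before the transcription start in RefSeq (GRCh38.p14), read 5′ to 3′ on the gene's own strand, with the motif match in capitals. SREBF2 lies at chr22:41832855-41833104 on the plus strand, and its match starts 133 bases before the transcription start. ASNS lies at chr7:97872409-97872658 on the minus strand, and its match to an ATF4 site starts 68 bases before the transcription start.
SREBF2: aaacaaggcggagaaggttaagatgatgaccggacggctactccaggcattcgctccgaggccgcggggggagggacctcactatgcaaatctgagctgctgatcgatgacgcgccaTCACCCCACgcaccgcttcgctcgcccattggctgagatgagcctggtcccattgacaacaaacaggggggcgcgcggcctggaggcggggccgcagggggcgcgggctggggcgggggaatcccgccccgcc
ASNS: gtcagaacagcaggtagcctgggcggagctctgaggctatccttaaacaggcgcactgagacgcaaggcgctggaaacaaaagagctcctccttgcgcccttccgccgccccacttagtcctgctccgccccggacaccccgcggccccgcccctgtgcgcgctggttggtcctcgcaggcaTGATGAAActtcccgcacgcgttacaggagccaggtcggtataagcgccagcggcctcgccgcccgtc
Both strands of 300 bases, 250 before to 50 after each start, were searched for TCACNCCAC (sterol regulatory element core) and TGATGNAA (ATF4 site), with N any base. Promoters were matched for 10034 of the 12606 genes. The first motif was found in 1.45% of them. It was found in 2 of 149 matched genes that were lower with MS7126 and all 3 hairpins, MVP and SREBF2, the target of the hairpins. None of the 16 matched genes of cholesterol synthesis held these letters in this window. The second motif was found in 2.72% of all matched genes and in 5 of 22 matched ATF4 targets, namely ASNS, ATF3, SLC1A5, SLC3A2 and SLC7A1. It was found in 25 of 450 matched genes, 5.56%, that were higher with MS7126 and differed from each hairpin. These are matches of letters, not sites of binding.

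Genes of cholesterol synthesis were lower in both arms. With MS7126 19 of 21 members were called lower and none higher, against 21 lower with #664, 21 with #665 and 19 with #667, and none higher with any hairpin. Over all genes tested, 7.88% were called lower with MS7126, against 35.1% with #664, 25.8% with #665 and 23.8% with #667. Called higher were 7.36%, 26.8%, 19.4% and 18.9% in the same order. The counts by list below have to be read against these shares. The list median was -1.35 with MS7126, -1.61 with #664, -1.45 with #665 and -1.86 with #667, while the median of all genes was 0.02, -0.06, -0.06 and -0.05. The same 19 enzymes were lower in all 4 comparisons. The exceptions were PMVK, phosphomevalonate kinase, at -0.33 with MS7126 and -0.50, -0.64 and -0.32 with the hairpins, and GGPS1, which makes the geranylgeranyl group, at 0.29 with MS7126 and -0.26, -0.32 and -0.09 with the hairpins. Neither was called with MS7126 or with #667.

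ACAT2 (chromosome 6, 159760328 to 159779055, plus strand) encodes the enzyme that makes acetoacetyl-CoA, the first step of the pathway. Its implied level was 480 normalized counts with MS7126, against 1814 with DMSO. It was 3085 with #664, 2521 with #665 and 1942 with #667, against 10364, 8714 and 8695 with shControl in the same 3 tables. The deposited log2 fold change was -1.92 (SE 0.16, adjusted p = 2.04e-29) with MS7126, -1.75 with #664, -1.79 with #665 and -2.16 with #667. Its difference from no hairpin passed the test, and the 95% interval against #664 ran from -0.50 to 0.16. The same held for MVK. MVK, mevalonate kinase, stood at -1.75 (SE 0.26) with MS7126 and at -1.56, -1.63 and -1.93 with the hairpins. For FDPS, farnesyl diphosphate synthase, the interval of the difference was narrow, from -0.31 to 0.42 against #664 and from -0.44 to 0.37 against #667, around deposited values of -1.55 with MS7126, -1.61 with #664 and -1.52 with #667.

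Other enzymes fell in both arms but by different amounts. HMGCS1, which makes HMG-CoA, fell less with MS7126 (-1.86, SE 0.24) than with each hairpin in the authors' deposited tables (-2.82, -2.76 and -3.35). The difference was 0.96 (95% interval 0.48 to 1.43, adjusted p = 0.00053) from #664, 0.90 (adjusted p = 0.00931) from #665 and 1.49 (adjusted p = 1.23e-06) from #667. Of the cholesterol synthesis list, 3 genes stood higher with MS7126 than with #664 and 1 lower, 1 higher and 2 lower than with #665, and 4 higher and none lower than with #667. The share of all genes that differed was 33.4%, 28.3% and 26.4% for #664, #665 and #667, and the list stayed under each of them. TM7SF2, a sterol reductase, fell further with MS7126 than with #664 and #665 (-1.21, SE 0.17, against -0.49 with #664 and -0.56 with #665 in the authors' deposited tables, adjusted p = 0.000272 and 0.00538 for the differences).

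**Figure D1:**
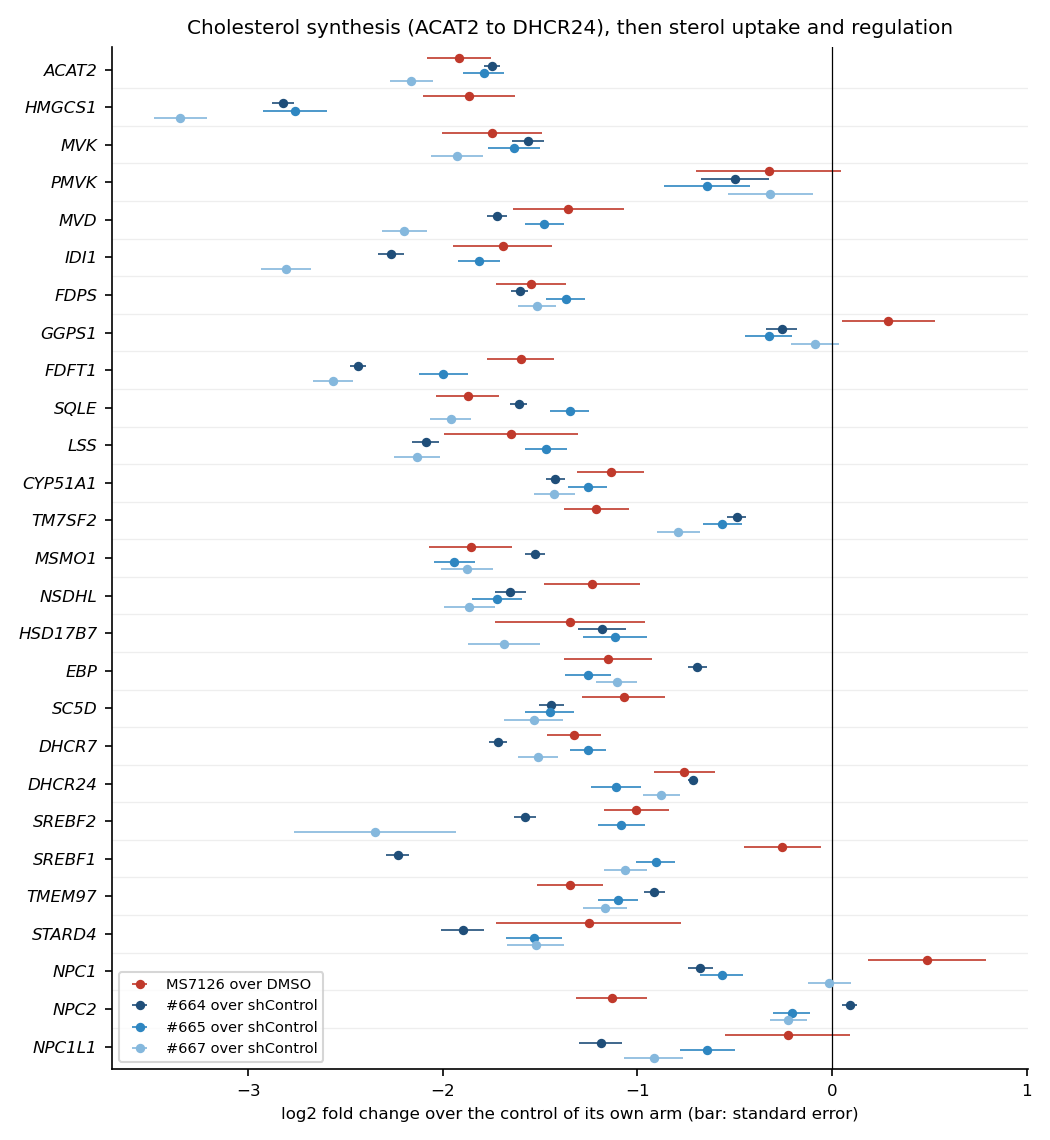
Log2 fold change (horizontal axis) with its deposited standard error (bars) for 20 genes of cholesterol synthesis and 7 genes of sterol uptake and regulation, in MS7126 over DMSO (red) and the 3 SREBP2 hairpins over shControl (blues). Most synthesis genes lie between -1 and -3 in all 4 comparisons, HMGCS1 lies furthest left with #667 at -3.35, and SREBF1 lies near 0 with MS7126 only.

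Sterol uptake and regulation was less uniform. Of 14 measured members, 5 were called lower and none higher with MS7126, against 9 lower and 4 higher with #664, 8 lower and none higher with #665 and 8 lower and 1 higher with #667. SREBF2, the target of the hairpins, is among the genes called lower in each comparison. Of all genes, 7.88% were called lower with MS7126, and 35.1%, 25.8% and 23.8% with #664, #665 and #667. TMEM97, a sterol-regulated membrane protein, fell in all 4 comparisons, at -1.35 with MS7126 and -0.91, -1.10 and -1.17 with the hairpins in the authors' deposited tables. STARD4, a carrier of cholesterol between membranes, was at -1.25 (SE 0.47, adjusted p = 0.0535) with MS7126, which did not pass, and at -1.90, -1.53 and -1.52 with the hairpins, each called.

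SREBF1 (chromosome 17, 17810399 to 17837002, minus strand) set the arms apart. Its implied level was 674 normalized counts with MS7126, against 805 with DMSO. It was 1029 with #664, 2168 with #665 and 1941 with #667, against 4835, 4064 and 4056 with shControl. The deposited log2 fold change was -0.26 (SE 0.20, adjusted p = 0.457) with MS7126 and -2.23, -0.91 and -1.06 with the hairpins, each hairpin called. The difference from MS7126 passed for each, at 1.98 (adjusted p = 7.53e-20), 0.65 (adjusted p = 0.0152) and 0.81 (adjusted p = 0.00252). NPC2, the lysosomal cholesterol carrier, went the other way. It fell with MS7126 (-1.13, SE 0.18, adjusted p = 2.65e-08) and stood at 0.09, -0.21 and -0.22 with the hairpins in the authors' deposited tables, with a difference from each that passed.

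Of the sterol exporters and their regulators, 5 genes were measured. ABCA1, the cholesterol exporter, was called lower with MS7126 (-0.91, SE 0.24, adjusted p = 0.00253) and stood at 0.23, -0.04 and 0.13 with the hairpins in the authors' deposited tables. Its difference from each hairpin passed. SCAP, which escorts SREBPs, and the proteases MBTPS1 and MBTPS2, which cut them, were not called with MS7126, at 0.05, 0.19 and 0.10 in the authors' deposited table. INSIG1 was not analysed here.

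Fatty acid synthesis was shared only in part. Of 15 measured members, 8 were called lower and 2 higher with MS7126, against 12 lower and 3 higher with #664, 12 and 1 with #665 and 10 and 1 with #667. Of all genes, 7.88% were called lower with MS7126, and 35.1%, 25.8% and 23.8% with #664, #665 and #667. Called higher were 7.36% with MS7126, and 26.8%, 19.4% and 18.9% with the hairpins. Called lower in all 4 comparisons were ACLY, FASN, SCD, FADS2 and ACSS2. SCD, the stearoyl-CoA desaturase, stood at -1.82 (SE 0.12, adjusted p = 1.09e-48) with MS7126 and at -2.46, -1.33 and -1.11 with the hairpins in the authors' deposited tables. ACACA, the acetyl-CoA carboxylase that commits carbon to fatty acids, fell with each hairpin (-1.72, -1.21 and -1.44) but was at -0.09 (SE 0.28) with MS7126, and the difference from each passed (adjusted p = 2.33e-07, 0.00213 and 0.000107). The elongases ELOVL1 and ELOVL5 had the same pattern, with deposited values of 0.42 and 0.07 with MS7126 and between -0.81 and -1.64 with the hairpins. PNPLA3, a lipid droplet protein and SREBP1 target, fell with MS7126 (-2.54, SE 0.35, adjusted p = 2.44e-11) well below the hairpins (-0.37, 0.12 and -0.40 in the authors' deposited tables). FADS1, a desaturase, likewise fell further with MS7126 (-1.63, SE 0.15) than with any hairpin, where it stood at -0.71, -0.28 and 0.04.

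ACSL3 and GPAM moved in opposite directions in the arms. ACSL3 activates fatty acids. It rose with MS7126 (0.76, SE 0.25, adjusted p = 0.0183) and fell with each hairpin (-1.19, -0.80 and -0.97 in the authors' deposited tables). GPAM starts glycerolipid synthesis. It fell with MS7126 (-0.69, SE 0.21, adjusted p = 0.0103) and rose with each hairpin (0.89, 0.38 and 0.48).

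Across all genes the log2 fold changes of the arms showed almost no linear relation. Pearson's r of the log2 fold changes over 12606 genes was -0.10 for MS7126 with #664, -0.05 with #665 and -0.01 with #667. These are correlations across genes, which are not independent replicates, and all points of an arm share its libraries. Among the 21 cholesterol synthesis genes the same r was 0.76, 0.75 and 0.83. MS7126 differed from each of the 3 hairpins in 2395 genes, or 19% of those tested.

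**Figure D2:**
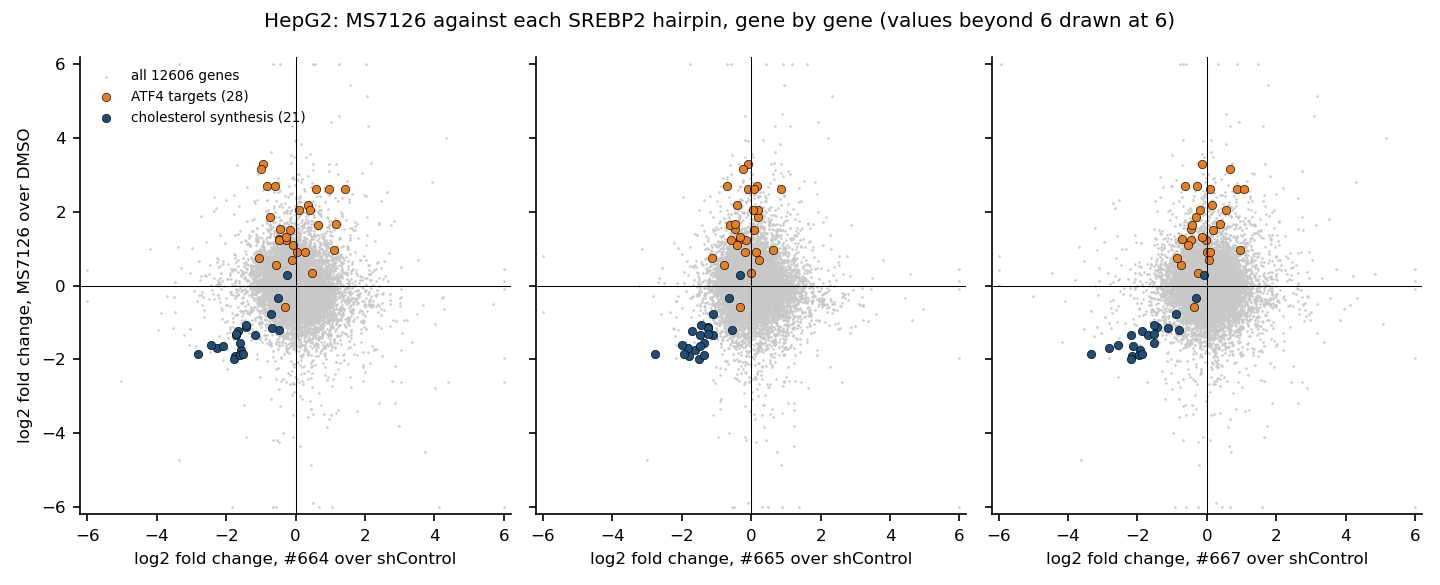
Log2 fold change of MS7126 over DMSO (vertical axis) against that of each SREBP2 hairpin over shControl (horizontal axes), 1 point per gene for 12606 genes. The 21 cholesterol synthesis genes (blue) gather at the lower left in each panel, and most of the 28 ATF4 targets (orange) lie high on the vertical axis around 0 on the horizontal one.

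With MS7126 928 genes were called higher, 7.36% of those tested, and 993 lower. With the hairpins, 26.8% of all genes were called higher with #664, 19.4% with #665 and 18.9% with #667, so an overlap with a hairpin has to be read against those shares. Of the genes higher with MS7126, 23.9% were also called higher with #664, 15.1% with #665 and 17.8% with #667, each below the share over all genes. Called lower instead were 46.8%, 35.6% and 30.1%, each above the share of all genes called lower. Of the genes lower with MS7126, 33.0% were also lower with #664, 32.6% with #665 and 32.0% with #667, against 35.1%, 25.8% and 23.8% of all genes, so below the share over all genes with #664 and above it with the other two. Called higher instead were 46.1%, 26.4% and 27.0%, each above the share of all genes called higher. Seen from the hairpins, the genes lower in both arms were 7.41%, 9.95% and 10.6% of those lower with #664, #665 and #667. Of all genes 7.88% were lower with MS7126, so the share was below that for #664 and above it for the other hairpins. The genes called with MS7126 had a median of 601 normalized counts in its table, against 287 over all genes.

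Called the same way with MS7126 and all 3 hairpins were 86 genes higher and 188 lower, or 9.27% and 18.9% of the genes called with MS7126. Over all genes tested, 11.1% were called higher with all 3 hairpins and 15.1% lower. The 86 and 188 were 6.16% and 9.89% of the genes called those ways with all 3 hairpins, against 7.36% and 7.88% of all genes called those ways with MS7126. Without #667, 110 genes were shared higher and 233 lower, 275 were opposite with MS7126 higher and 239 with MS7126 lower, and 614 and 517 were different in the sense given below. The shared lower count was 19 for cholesterol synthesis with and without #667. For sterol uptake and regulation it was 4 in both, with SREBF2, the target of the hairpins, among them. Fatty acid synthesis had 5 with #667 and 6 without. ATF4 targets that were higher with MS7126 and different from each hairpin numbered 15 with #667 and 16 without. Called the opposite way with all 3 hairpins were 208 genes higher with MS7126 and 177 lower. With the fold changes centred on each table's median these became 153 and 226, so the split between them depends on the scaling. A difference from each hairpin, with the same call in none, held for 556 genes higher and 450 lower with MS7126, which include all 208 and 177 opposite ones. The remaining 286 higher and 355 lower genes fell between, called the same way with 1 or 2 hairpins or not shown to differ from each.

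**Figure D3:**
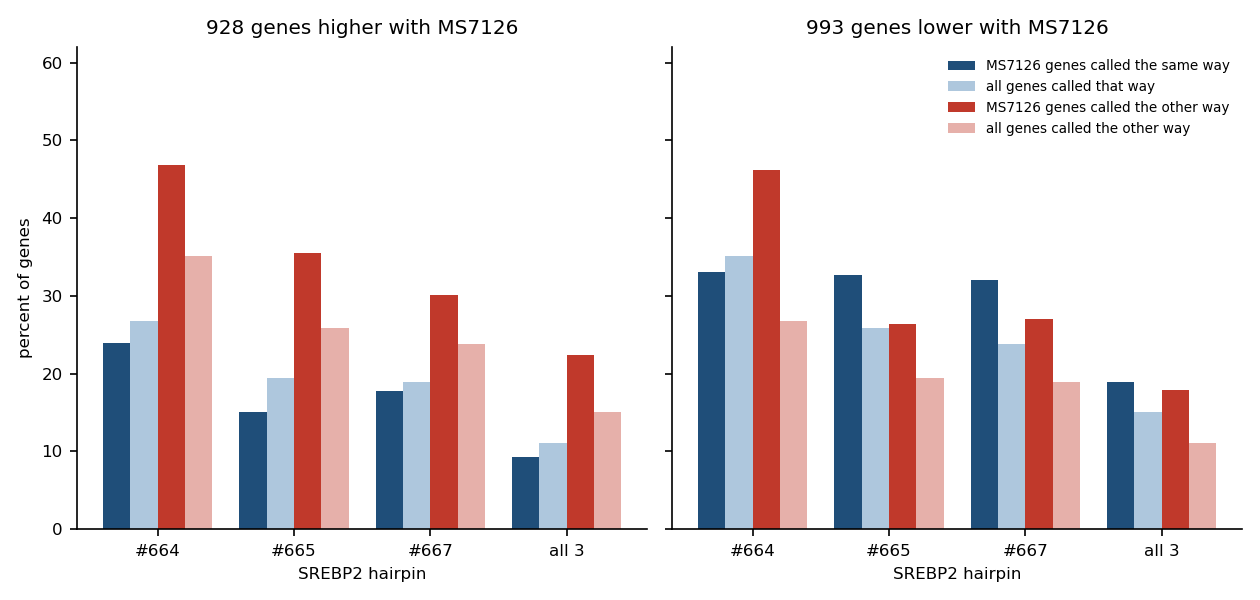
Percent of the 928 genes higher (left) and 993 genes lower (right) with MS7126 that each SREBP2 hairpin, or all 3, called the same way (dark blue) or the other way (red), beside the percent of all 12606 genes called those ways (pale bars). The dark blue bars stand below the pale ones for genes higher with MS7126, and above them for genes lower with MS7126 with #665, #667 and all 3 together.

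Restricting to changes of at least 2-fold in all 4 comparisons left mainly lipid genes among those shared lower. MS7126 alone had 395 such genes higher and 396 lower, 3.13% and 3.14% of those tested. All 3 hairpins together had 245 higher and 120 lower, 1.94% and 0.952%. At that size the overlap of the higher genes turned round: 3.04% of those higher with MS7126 were higher with all 3 hairpins, above the 1.94% of all genes. The same held with #664 (8.61% against 5.28% of all genes) and #667 (8.35% against 4.84%), and not with #665 (4.81% against 5.05%). Shared lower at that size were 23 genes, 5.81% of the MS7126 set and 19.2% of the hairpin set, and 21 of them belong to the 3 lists of cholesterol synthesis, sterol uptake and regulation, and fatty acid synthesis. Without #667 25 genes were shared lower at that size, 21 of them in the same lists. Both counts include SREBF2, the target of the hairpins. The other 2 with all 3 hairpins were COL2A1, a cartilage collagen, at -1.18 with MS7126 and -3.05, -2.21 and -3.55 with the hairpins, and TUBA1A, an alpha-tubulin, at -1.19 with MS7126 and -3.97, -2.11 and -1.66 with the hairpins in the authors' deposited tables. Those lists were chosen with earlier results of these data known, so the count describes the set and is no independent evidence.

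Shared higher at 2-fold were 12 genes, none of them in the lipid lists. AQP3, a water and glycerol channel, stood at 4.32 (SE 0.35, adjusted p = 1.51e-31) with MS7126 and at 2.09, 1.11 and 1.61 with the hairpins in the authors' deposited tables. It rose more with MS7126 than with each hairpin (adjusted p = 5.08e-07, 9.34e-11 and 4.99e-08). CCPG1, a receptor for autophagy of the endoplasmic reticulum, rose by closer amounts, at 1.30 (SE 0.21) with MS7126 and 1.28, 1.21 and 1.63 with the hairpins. IGFBP3, which binds insulin-like growth factors, stood at 3.99 (SE 0.67) with MS7126 and at 4.34, 2.21 and 5.16 with the hairpins. TAT, the tyrosine aminotransferase of hepatocytes, rose to 3.10 (SE 0.48) with MS7126, against 0.95, 1.05 and 2.75 with the hairpins, and is below 2-fold with #664. NRDE2, an RNA-processing factor, was also shared at 1.00 (SE 0.32) with MS7126 and 1.19, 1.28 and 1.26 with the hairpins. In the authors' deposited table of MS7126N1, set against the same DMSO pair, NRDE2 stood at 1.49 (SE 0.28, adjusted p = 0.000134), so an effect of MS7126 and a feature of that DMSO pair cannot be told apart.

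Most ATF4 targets rose with MS7126 and stood above the hairpins. With MS7126 25 of 28 measured members were called higher and 1 lower, at a median log2 fold change of 1.53. With #664, #665 and #667 9, 2 and 5 members were called higher and 14, 11 and 11 lower, at medians of -0.14, -0.17 and -0.13. Over all genes, 7.36% were called higher and 7.88% lower with MS7126. For the hairpins these shares were 26.8%, 19.4% and 18.9% higher, and 35.1%, 25.8% and 23.8% lower. Higher with MS7126 than with the hairpin were 25, 24 and 24 of the 28, and none was lower with MS7126. Over all 12606 genes, 2339, 1977 and 1865 stood higher with MS7126 than with #664, #665 and #667, and 1868, 1590 and 1469 lower. Of the 28 targets, 15 were called higher with MS7126, differed from each hairpin and were called higher with none. Of all 12606 genes, 556 met the same conditions, including 208 called lower with all 3 hairpins. Among these 15, the 5 also called lower with all 3 hairpins were TRIB3, CEBPB, SHMT2, PYCR1 and PSPH.

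ASNS (chromosome 7, 97852118 to 97872542, minus strand), whose start is printed above, had an implied level of 6100.3 normalized counts with MS7126, against 622 with DMSO. It had 1033 with #664, 1581 with #665 and 1537 with #667, against 1998, 1679.9 and 1676 with shControl. The deposited log2 fold change was 3.29 (SE 0.17, adjusted p = 2.59e-77) with MS7126 and -0.95, -0.09 and -0.13 with the hairpins. The difference was 4.25 (95% interval 3.88 to 4.62) from #664, 3.38 (2.98 to 3.79) from #665 and 3.42 (3.01 to 3.83) from #667. TRIB3, a pseudokinase induced by stress, rose with MS7126 to 2.71 (SE 0.14, adjusted p = 8.73e-86) and fell with each hairpin, at -0.58, -0.71 and -0.62 in the authors' deposited tables. CEBPB, a transcription factor that pairs with ATF4, did the same at 1.54 (SE 0.15) with MS7126 and -0.46, -0.48 and -0.45 with the hairpins.

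Among enzymes, SHMT2, the mitochondrial serine hydroxymethyltransferase, rose with MS7126 (1.25, SE 0.15) and fell with each hairpin (-0.48, -0.34 and -0.71 in the authors' deposited tables). PYCR1, of proline synthesis, rose by 0.74 (SE 0.17) with MS7126 and fell with each hairpin, at -1.06, -1.12 and -0.85. Among transporters, SLC7A11, the cystine importer, stood at 2.70 (SE 0.20, adjusted p = 9.12e-37) with MS7126 and -0.82, 0.16 and -0.27 with the hairpins. ATF4 mRNA itself was at 0.70 (SE 0.12, adjusted p = 3.05e-07) with MS7126 and -0.11, 0.21 and 0.07 with the hairpins, and differed from each.

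The shared ATF4 targets were DDIT3 and STC2. DDIT3, also called CHOP, rose with all 3 hairpins (0.95, 0.85 and 0.88), but rose more with MS7126 (2.63, SE 0.30), by differences of 1.68, 1.78 and 1.75 (adjusted p = 8.81e-06, 2.79e-05 and 3.21e-05). STC2, a secreted glycoprotein, rose by 0.95 (SE 0.17) with MS7126 and by 1.11, 0.63 and 0.94 with the hairpins in the authors' deposited tables, with no difference that passed. ALDH18A1, of proline synthesis, fell in all 4 comparisons, at -0.58 with MS7126 and -0.31, -0.31 and -0.36 with the hairpins.

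**Figure D4:**
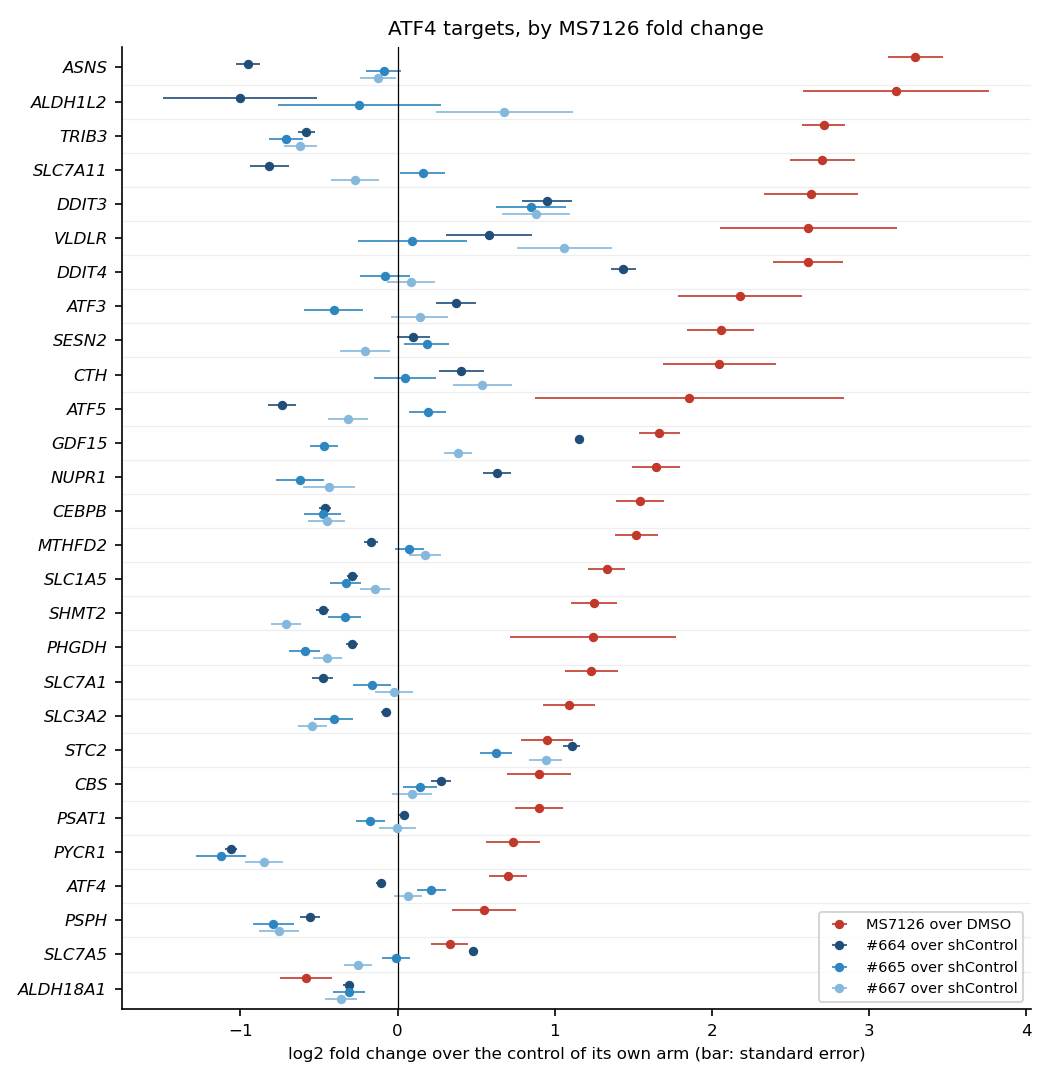
Log2 fold change (horizontal axis) with its deposited standard error (bars) for the 28 ATF4 targets measured, ordered by their value in MS7126 over DMSO (red), beside the 3 SREBP2 hairpins over shControl (blues). The red points run from 3.29 for ASNS to -0.58 for ALDH18A1, and most blue points lie between -1 and 1.

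Among the other stress lists, tRNA synthetases and NRF2 targets held more genes called higher than lower with MS7126, and the unfolded protein response did not. Of 14 measured cytosolic tRNA synthetases, which charge amino acids onto tRNA, 9 were called higher with MS7126 and none lower, and 7 of the 9 differed from each hairpin and shared no call. WARS1 stood at 1.99 (SE 0.17, adjusted p = 7.47e-29) with MS7126 and -0.60, -0.26 and -0.49 with the hairpins in the authors' deposited tables. EPRS1 was the shared one, at 0.71 with MS7126 and 0.48, 0.86 and 0.58 with the hairpins. Of 18 NRF2 targets, genes of the oxidative stress response, 12 were called higher and 1 lower with MS7126, against 9 and 5 with #664, 4 and 7 with #665 and 9 and 6 with #667. GCLM, SRXN1 and AKR1C2 were higher in all 4 comparisons. SRXN1, sulfiredoxin, rose more with MS7126 (2.03, SE 0.15) than with the hairpins (0.52, 0.31 and 0.44 in the authors' deposited tables). AKR1C2 and its close paralog AKR1C1 can share reads, and their split is uncertain. Of 20 genes of the unfolded protein response, 2 were called higher and 3 lower with MS7126, at a median of 0.03, against 3 and 12 with #664, 2 and 11 with #665 and 7 and 5 with #667, at medians of -0.23, -0.28 and -0.01. For all lists of this paragraph, the shares over all genes were 7.36% higher and 7.88% lower with MS7126. With the hairpins they were 26.8% and 35.1% for #664, 19.4% and 25.8% for #665, and 18.9% and 23.8% for #667.

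Of 22 p53 targets, 9 were called higher and none lower with MS7126. With #664 6 were called higher and 11 lower, with #665 2 and 12, and with #667 2 and 12. The shares over all genes were 7.36% higher and 7.88% lower with MS7126, and 26.8% and 35.1% with #664. They were 19.4% and 25.8% with #665, and 18.9% and 23.8% with #667. The 6 called higher with #664 are thus near the share over all genes. CDKN1A, the cell cycle inhibitor p21, rose with MS7126 (1.21, SE 0.17, adjusted p = 3.23e-11) and fell with each hairpin, at -0.57, -0.68 and -0.85 in the authors' deposited tables. In all, 5 p53 targets moved in opposite directions in the arms, namely CDKN1A, AEN, PHLDA3, BAX and the metabolic regulator TIGAR. Of 8 immediate early genes, 6 were called higher with MS7126 and none lower. With #664 6 were also called higher and 2 lower, with #665 3 and 3, and with #667 4 and 1. JUN and DUSP1 were shared, and EGR1 stood at 2.62 (SE 0.26, adjusted p = 1.08e-20) with MS7126, against 0.24, -0.02 and 0.17 with the hairpins in the authors' deposited tables.

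Genes of DNA replication and mitosis were more often called lower than higher in both arms. Of 34 replication genes, 19 were called lower and none higher with MS7126, against 23 lower and 2 higher with #664, 26 and 1 with #665 and 18 and none with #667. Among all genes, 7.88% were called lower with MS7126 and 35.1%, 25.8% and 23.8% with the hairpins. Lower in all 4 comparisons were 10 of the 34 (13 without #667), against 188 of all 12606 genes (233 without #667). Among the 10 was POLD1, a replicative polymerase subunit, at -1.60 (SE 0.24) with MS7126 and -0.47, -0.33 and -0.33 with the hairpins. TYMS, thymidylate synthase, separated the arms. It fell with the hairpins (-1.74, -1.74 and -1.60), with an SE of 0.05 for #664 and larger ones of 0.42 and 0.36 for #665 and #667. TYMS was at -0.33 (SE 0.18, adjusted p = 0.254) with MS7126, and the difference from each hairpin passed (adjusted p = 4.95e-12, 0.00954 and 0.00916).

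Of 28 mitosis genes, 19 were called lower and none higher with MS7126, against 16 lower and 6 higher with #664, 15 and 5 with #665 and 14 and 4 with #667. Among all genes, 7.88% were called lower with MS7126 and 35.1%, 25.8% and 23.8% with the hairpins. Called higher were 7.36% with MS7126 and 26.8%, 19.4% and 18.9% with the hairpins. Lower in all 4 comparisons were 8 of the 28, against 188 of all 12606 genes. CENPE, a kinetochore motor, CENPF and UBE2C, a ubiquitin-conjugating enzyme, fell with MS7126 and rose with all 3 hairpins. CENPE stood at -1.89 (SE 0.19, adjusted p = 1.35e-20) with MS7126 and at 0.45, 0.95 and 0.64 with the hairpins in the authors' deposited tables.

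Plasma protein genes of hepatocytes were mostly called lower with MS7126. Of 22, 14 were called lower and 3 higher with MS7126, at a median of -0.75. With #664 4 were lower and 15 higher, with #665 11 and 4, and with #667 5 and 10, at medians of 0.21, -0.22 and 0.21, so the hairpins did not share 1 direction here. The shares of all genes called lower were 7.88% with MS7126 and 35.1%, 25.8% and 23.8% with the hairpins. Those called higher were 7.36% with MS7126 and 26.8%, 19.4% and 18.9% with the hairpins. APOC3 (chromosome 11, 116829706 to 116833072, plus strand), an apolipoprotein of triglyceride-rich particles, had an implied level of 663 normalized counts with MS7126, against 2863 with DMSO. It had 34150.3 with #664, 15299 with #665 and 22936 with #667, against 7681, 6458 and 6445 with shControl. The deposited log2 fold change was -2.11 (SE 0.17, adjusted p = 2.09e-32) with MS7126 and 2.15, 1.24 and 1.83 with the hairpins. APOA1, the main protein of HDL, was at -1.87 (SE 0.12) with MS7126 and at 1.39, 0.60 and 1.00 with the hairpins in the authors' deposited tables. FGB, a fibrinogen chain, was the third plasma protein opposite in the arms. HP, haptoglobin, was at -3.62 (SE 0.16, adjusted p = 3.05e-107) with MS7126 and stood at 0.96, 0.10 and 0.66 with the hairpins. HPR is nearly identical to HP in sequence, so reads may be split between them. TTR, transthyretin, was the only one of the 22 called lower in all 4 comparisons.

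**Figure D5:**
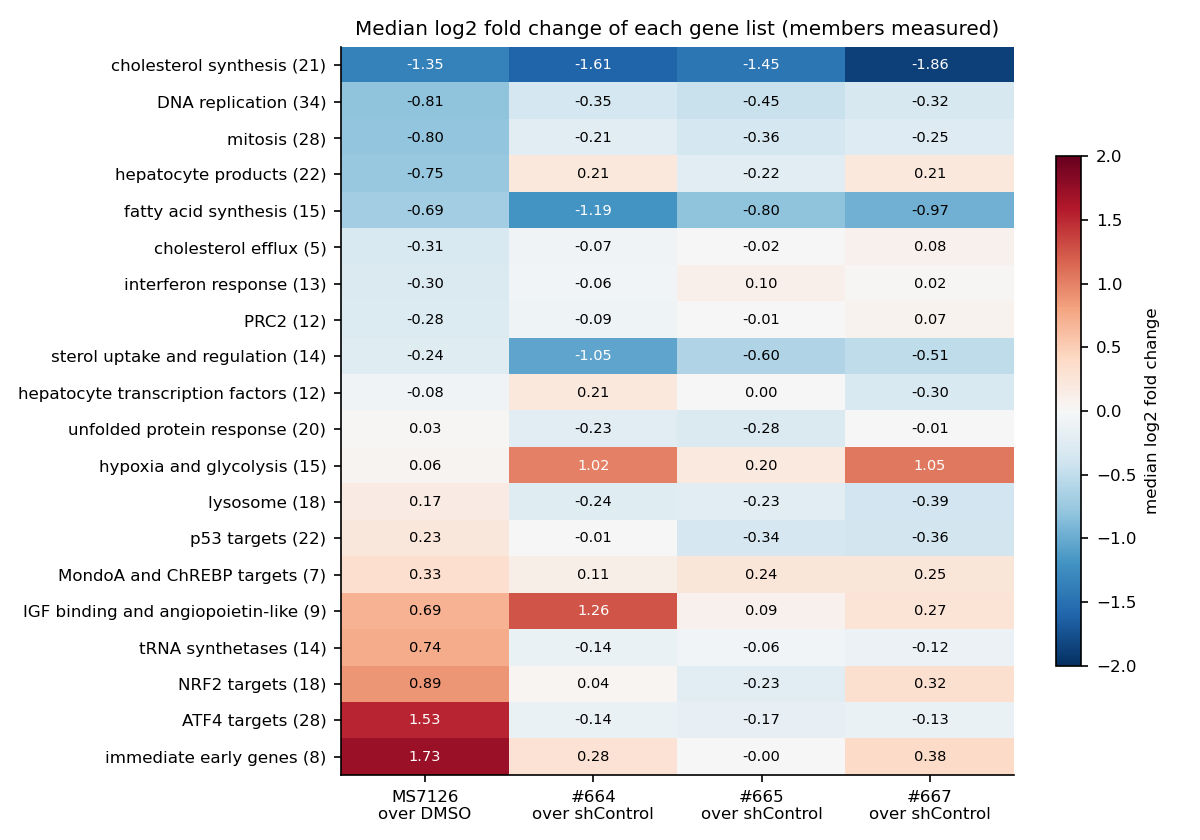
Median log2 fold change of each gene list, with the number of measured members in parentheses, in MS7126 over DMSO (left column) and in the 3 SREBP2 hairpins over shControl. Cholesterol synthesis is blue in all 4 columns, from -1.35 to -1.86, while ATF4 targets are at 1.53 with MS7126 and between -0.13 and -0.17 with the hairpins.

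Of 15 genes of hypoxia and glycolysis, 3 were called higher and none lower with MS7126, against 11 and 4 with #664, 6 and 4 with #665 and 12 and 1 with #667. With MS7126 7.36% of all genes were called higher, and the shares with the hairpins stand at the end of this paragraph. NDRG1, a hypoxia-induced gene, was called higher with each hairpin (2.18, 0.89 and 2.22) and was at -0.28 (SE 0.38) with MS7126, with a difference from each that passed. SLC2A1, the glucose transporter GLUT1, rose with MS7126 (1.29, SE 0.25) and fell with each hairpin, at -0.97, -0.33 and -1.20 in the authors' deposited tables. Of the 12 PRC2 genes, the complex that holds EZH2, PHF1 was called higher and RBBP4 lower with MS7126, which is near the shares of 7.36% and 7.88% over all genes. Of 13 interferon response genes, none passed with MS7126 in the authors' deposited table and 1 had an unadjusted p under 0.05. With the hairpins 4 were called higher and 3 lower with #664, 2 and 2 with #665 and 3 and 3 with #667, against 26.8% and 35.1%, 19.4% and 25.8%, and 18.9% and 23.8% of all genes.

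The genes furthest apart between the arms included several outside the lists. MID1IP1, a protein that promotes acetyl-CoA carboxylase assembly, rose with MS7126 (1.00, SE 0.32, adjusted p = 0.0148) and fell with the hairpins, at -4.19, -3.15 and -2.44 in the authors' deposited tables. The difference was 5.19 (95% interval 4.52 to 5.86) from #664, 4.15 from #665 and 3.44 from #667. SERPINE2, a protease inhibitor, stood at 1.29 (SE 0.19) with MS7126 and -1.35, -1.25 and -1.50 with the hairpins. ODC1, which starts polyamine synthesis, stood at 1.10 (SE 0.16) with MS7126 and at -1.14, -0.94 and -1.01 with the hairpins. GSTA1, a glutathione transferase of liver, went the other way, at -2.62 (SE 0.47, adjusted p = 9.63e-07) with MS7126 and 6.07, 2.60 and 2.75 with the hairpins in the authors' deposited tables. It has close paralogs that can share its reads. SULT2A1, a sulfotransferase of steroids and bile acids, fell to -2.75 (SE 0.22) with MS7126 and rose to 1.61, 0.49 and 1.02 with the hairpins.

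Some of the largest MS7126 values recurred with other compounds set against the same DMSO pair. PIGA, an enzyme of membrane anchor synthesis, stood at -4.10 (SE 0.45) with MS7126 and between -0.09 and -0.19 with the hairpins in the authors' deposited tables. PER1, a clock gene, was at -3.83 (SE 0.47) with MS7126 and at 0.90, 0.37 and 0.61 with the hairpins. Set against the same DMSO libraries, MS7126N1, an analog that is no PROTAC, gave -3.58 for PIGA and -4.93 for PER1 in its deposited table, and MS7126N2, another such analog, gave -1.27 and -4.43. ASL, of the urea cycle, was at 2.91 with MS7126 and at 2.32 with C24, the matched inhibitor of the enzyme. For these 3 genes a trait of the DMSO pair cannot be told apart from an effect of the compounds. ASNS stood at 0.37 with C24, -0.00 with MS7126N1 and 1.91 with MS7126N2 against the same pair in the deposited tables.

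Genes called with all 3 hairpins, not called with MS7126 and different from each numbered 448 higher and 556 lower (621 and 805 without #667), 32.1% and 29.3% of those called with all 3. NGFR, a neurotrophin receptor, fell to -3.71, -2.83 and -5.00 with the hairpins and was at -0.28 (SE 0.19, adjusted p = 0.382) with MS7126 in the authors' deposited tables. ANXA3, an annexin, fell to -2.93, -1.89 and -2.50 with the hairpins and was at -0.15 (SE 0.29) with MS7126. MMACHC, of vitamin B12 processing, rose to 3.49, 3.60 and 2.95 with the hairpins (SE 0.05, 0.35 and 0.58) and was at -0.76 (SE 0.29, adjusted p = 0.0552) with MS7126. MALAT1 and MT-RNR2, the larger mitochondrial ribosomal RNA, were also among the 5 furthest of those that rose, at 0.55 and -0.41 with MS7126 and between 2.03 and 2.55 with the hairpins.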

How the data were processed

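RNA was sequenced from HepG2 cells, in 6 groups of 2 libraries. Libraries were made from total RNA with a TruSeq v2 or an NEBNext Ultra II kit, per the labels' protocols, without saying which library used which. STAR 2.4.2, Salmon and GRCh38 are named in the submitters' processing notes. For strand and counting settings, the sources used here give nothing. Per the file headers, each of the authors' deposited tables holds a mean normalized signal per gene (normalized counts), a log2 fold change and standard error, the statistic (a score), and both raw and adjusted p-values, under DESeq2's column names. The statistic equalled the fold change over its standard error in every row. A test of counts per library was planned for tables that held them. These hold none, so the authors' comparisons were used.

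The tables name some genes by older symbols. Symbols that RefSeq no longer uses were replaced where exactly 1 current gene lists them (836 in the MS7126 table, 287 to 292 in the hairpin tables), which gained 424 of the 12606 genes. Of these genes, 823 had no adjusted p in the MS7126 table and count as not called. Group levels were rebuilt on the basis of 2 libraries on each side. The shControl levels rebuilt from the 3 hairpin tables differed by a constant, with an interquartile range of at most 0.00196 on the log2 scale. The difference between MS7126 and a hairpin was divided by its standard error (both squared errors added, then the square root) and tested two-sided against a normal distribution, with Benjamini-Hochberg adjustment over all 12606 genes. This step was also tested on simulated data. Their noise was drawn from the same deposited standard errors, so that test could not check those errors. A difference that missed the threshold is not shown to be absent. A shared gene was called the same way with all 3 hairpins, an opposite one the other way with all 3, and a different one differed from each with the same call in none.

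The members and the 20 gene lists were chosen with earlier results of these data known. Genes were named by rule: SREBF2, EZH2, the cholesterol synthesis and sterol uptake lists, up to 6 of each other list by MS7126 adjusted p, and the furthest genes of each class with a mean of at least 100 and a standard error under 1. Results for some of these genes are not reported here, and other genes were named after their values were seen. Python 3 with NumPy, SciPy and pandas was used. Coordinates are 1-based, from GENCODE 29. Alternatives tried were a threshold of 0.01, a 2-fold minimum, a mean of at least 50 or none, adjustment over the common genes, each hairpin left out, centring, large standard errors left out, the mean of the hairpins, Spearman's correlation, symbols as deposited, and #667 left out of further counts, the last pair chosen after the data were seen.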

Additional observations from a re-analysis of the deposited data

Results flagged for a closer look

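Of 189 genes named by rule, 10 were called in opposite directions with different SREBP2 hairpins, and the hairpins' log2 fold changes also differed there by a test of the difference. The variances were summed without regard to the shControl pair the hairpins share. In the authors' deposited tables, #664 minus #665 was 1.34 for ACSL1, 1.20 for APOH, -1.39 for ARRDC4, 0.88 for BBC3, 1.63 for GDF15 and 0.88 for IER3. The difference #664 minus #667 was 1.28 for ACSL1, -0.41 for LDHA, 0.31 for NPC2 and -1.61 for TXNIP. The difference #665 minus #667 was -0.85 for GDF15, -0.89 for HERPUD1, -1.26 for IER3 and -0.71 for LDHA. For these genes the hairpins give no single direction to set MS7126 against.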

How the results depend on the processing

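At a threshold of 0.01, MS7126 called 558 genes higher and 656 lower, 50 were shared higher and 101 lower, 86 were opposite with MS7126 higher and 100 with MS7126 lower, and 296 differed with MS7126 higher. With a 2-fold minimum these were 395 and 396 called, 12 and 23 shared, 4 and 11 opposite, and 279 and 253 different. Centring on the median moved the #664 median to -1.54 for cholesterol synthesis and to -0.073 for ATF4 targets, and turned FGA with #664 to 0.016, against -0.05 as deposited. Of the alternatives for counts, correlations and those list medians, 112 stayed within the tolerance, 15 gave smaller counts and 2 moved. The tolerance was a factor of 1.5 for counts and 0.05 for correlations, so a count within it could still change clearly. Within it, centring took the opposite genes with MS7126 higher from 208 to 153. Leaving out #667 took the genes called lower with the hairpins only from 556 to 805. Among values of single genes, 1 reversed, 68 lost their call and 17 gained one. Using symbols as deposited, which left 85 shared higher, was added after the data were seen, as was leaving #667 out of the counts at 2-fold, by list and for the hairpins only. No paired analysis was possible because the tables hold no values per library. For the same reason leaving out each replicate, edgeR, DESeq2 size factors and a filter on counts per library were not run, and 2 libraries a group limit the precision of every value.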
